A study of Mus musculus with 2 samples.

Results

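The genes described here are 34 smooth muscle contractile genes, a list of the actins, myosin parts, thin filament regulators, anchoring proteins, relaxation genes and transcription factors of smooth muscle cells. They were chosen by name, from what is known of smooth muscle, and with earlier results of these data known. Each was read through its probe set with the highest mean on both arrays. All 34 had a probe set that names only that gene, and all 34 passed the expression filter (an intensity of at least 78.5, the median of all values, in either pool). Of 18194 genes in all, 11862 passed it. A probe set is a group of short probes against one transcript, and its intensity was summarised by RMA. The animals were IL-9 transgenic mice and wild-type (WT) mice, both with a BALB/c background and 6 to 8 weeks old, without treatment. Interleukin 9 is a type 2 cytokine that promotes mast cell growth. Total RNA of the small intestine was hybridised to Affymetrix mouse arrays, with 1 array for each group. The transgenic (TG) array holds RNA pooled from 3 mice, and so does the WT array. The labels do not say which promoter drives the transgene or in which cells, and pooling hides the spread between mice. No difference below has a replicate check, and no p-value is given.

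Smooth muscle forms the muscle layers of the gut wall, the muscularis mucosae and the coats of blood vessels. Calcium that enters the cell or leaves its stores binds calmodulin, which switches on myosin light chain kinase. The kinase phosphorylates the myosin light chain, and myosin then pulls on actin filaments that are anchored in dense bodies and at the membrane. Myosin phosphatase and cyclic GMP signalling oppose this and relax the muscle. Serum response factor (SRF) and its partner myocardin drive many of these genes through a DNA element called the CArG box. Smooth muscle contraction is part of how the gut expels parasites, a response in which type 2 cytokines and mast cells take part.

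As this element is the one for which the contractile genes are known, upstream sequences are shown for Actc1, the member with the largest difference between the pools, for its skeletal muscle counterpart Acta1, for Pde5a, the member at the other end of the range, and for the other members with a CArG box. They are from RefSeq on build GRCm38.p6, run 5′ to 3′ on the strand of the gene and end before the annotated start. Capitals mark a CArG box (CC, then 6 bases that are each A or T, then GG). Reading the opposite strand gives the same form.
Actc1, chr2:114052876-114053125, minus strand: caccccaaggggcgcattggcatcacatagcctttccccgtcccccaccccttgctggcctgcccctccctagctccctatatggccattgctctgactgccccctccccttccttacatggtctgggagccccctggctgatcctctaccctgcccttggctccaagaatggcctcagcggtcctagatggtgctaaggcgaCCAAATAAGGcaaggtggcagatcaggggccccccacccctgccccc
Acta1, chr8:123894776-123894925, minus strand: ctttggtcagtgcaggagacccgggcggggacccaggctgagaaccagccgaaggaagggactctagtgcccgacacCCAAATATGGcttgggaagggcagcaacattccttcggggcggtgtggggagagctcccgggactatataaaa
Pde5a, chr3:122729008-122729157, plus strand: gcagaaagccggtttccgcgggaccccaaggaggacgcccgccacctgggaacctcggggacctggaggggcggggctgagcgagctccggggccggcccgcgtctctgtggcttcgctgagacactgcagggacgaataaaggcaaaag
Myl9, chr2:156775283-156775332, plus strand: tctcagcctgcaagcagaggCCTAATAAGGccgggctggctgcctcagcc
Vcl, chr14:20929151-20929200, plus strand: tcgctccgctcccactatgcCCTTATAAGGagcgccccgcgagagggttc
Srf, chr17:46556195-46556264, minus strand: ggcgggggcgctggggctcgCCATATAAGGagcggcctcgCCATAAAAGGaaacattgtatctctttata
Dmd, chrX:82948752-82948801, plus strand: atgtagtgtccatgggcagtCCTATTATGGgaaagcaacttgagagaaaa

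A promoter window of 250 bases before to 50 bases after the start was at hand for 30 of the 34 genes. Actg2, Myh11, Tagln and Myocd had no window and were not searched. Of these, 6 (20%) held a CArG box, against 488 of all 27025 genes with a window (1.81%). The 6 genes were Acta1, Actc1, Dmd, Myl9, Srf and Vcl, and Srf held 2 boxes, at 82 and 62 bases before its start. The box of Actc1 began 47 bases and that of Acta1 73 bases before the start. These matches describe the letters in the window and no site that is bound, and boxes farther away or inside the gene were not looked for. A different element, CATTCC on either strand, which is the core letters of the MCAT element bound by TEAD factors, stood in 11 of the 30 genes (36.7%), against 16.6% of all genes with a window. As given below, the 6 genes with a CArG box shared no direction: Actc1 lay far above 0, Acta1, Myl9 and Vcl slightly above, Srf slightly below, and the probe sets of Dmd disagreed.

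Across the 34 genes the pools were close, with 1 large exception. The exception was Actc1, which was 2.65-fold higher in the TG pool. The median log2 difference (TG pool minus WT pool, after adding 1 to each intensity) was 0.04 over the 34 genes, beside 0.01 over all genes past the filter. Of the 34 genes, 19 lay above 0 (55.9%), as did 51.4% of all genes past the filter. An intensity higher by at least 25% was found in 4 genes (Actc1, Ppp1r14a, Mustn1 and Des), 11.8% of the 34, where the share over all genes past the filter was 7.97%. An intensity lower by at least 20%, which is the same step on the log2 scale, was found in 2 genes (Pde5a and Pln), 5.88% of the 34, against 7.77% of all genes. With 34 genes these shares are near the background. At 2-fold, 1 gene was higher and 0 were lower, and in all genes past the filter 0.607% were higher and 0.202% lower by that much. In bulk tissue, fewer muscle cells and less RNA per muscle cell cannot be told apart.

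**Figure D1:**
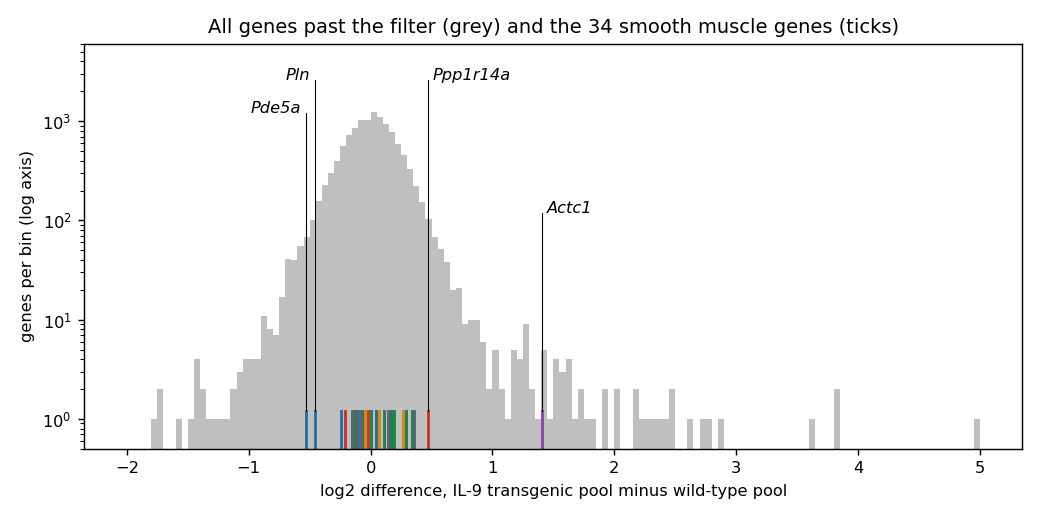
Number of genes (log axis) by log2 difference, TG pool minus WT pool, for all 11862 genes past the filter (grey bars) and for the 34 smooth muscle genes (ticks at the base, coloured by role). Most ticks lie in the middle of the distribution, and Actc1 at 1.41 stands apart from the other 33.

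The yardstick for a single gene is the spread between probe sets of one gene on these arrays. Its SD was 0.23 on the log2 scale over the 4965 genes that more than 1 probe set measured above the filter, and 0.16 over the 16 smooth muscle genes of that kind. The probe sets of a gene share the same RNA and arrays, so that spread holds nothing of the variation between mice or between arrays. It serves as a scale for size and is no error of the difference between the pools. Of the 34 genes, 24 (70.6%) lay within 1 SD of 0, taking the SD over all genes (0.23), and so did 71.4% of all genes past the filter. Among the 16 genes, 11 (68.8%) had all their probe sets on one side of 0, while among all 4965 genes 44.1% did. The other 5 were Myh11, Mylk, Ppp1r12b, Tpm1 and Dmd, for which no direction is given. Both shares include probe sets that reached the filter in only 1 pool, and the filter fixed their side of 0. Among the 16 genes these were a probe set of Kcnmb1 and another of Ppp1r12b.

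The actins form the thin filament, and of the 4 only the cardiac one was past 25%. Actc1, the sarcomeric actin of the heart, read 701 in the TG pool and 264 in the WT pool. This difference of 1.41 on the log2 scale was the 42nd highest of the 11862 genes. Actc1 has 1 probe set of its name on the array, so no second measurement of it exists here. Actg2, the enteric smooth muscle actin, read 2974 in the TG pool and 2429 in the WT pool, a difference of 0.29. Acta1, the skeletal muscle actin, read 201 in the TG pool and 182 in the WT pool (0.14). Acta2, the vascular type of smooth muscle actin and a general marker of smooth muscle, read 7495 in the TG pool and 7819.7 in the WT pool (-0.06). The probe sets of Acta1, Acta2 and Actg2 carry identifiers that mark them as able to match more than one transcript. The cytoplasmic actins Actb and Actg1, which the epithelium also makes, differed by -0.10 and -0.05 on their brightest probe sets, and the 5 probe sets of Actb ran from -0.10 to 0.19.

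**Figure D2:**
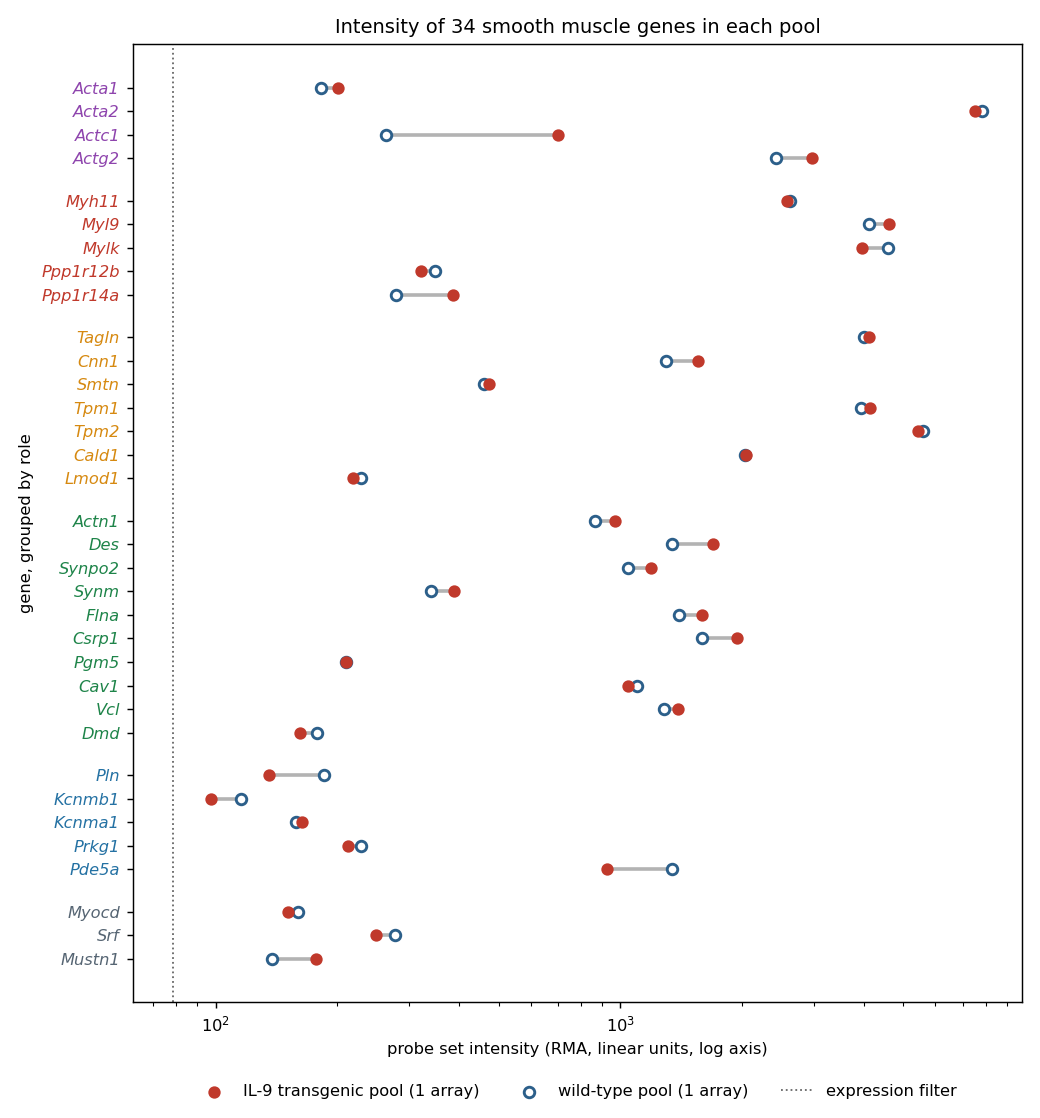
Intensity (RMA values, log axis) of each of the 34 genes in the TG pool (filled red) and the WT pool (open blue), grouped by role, with a dotted line at the expression filter. The points of most genes nearly coincide, and the widest gap is that of Actc1, at 701 in the TG pool and 264 in the WT pool.

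Actc1 is also the main actin of heart muscle, so other heart and skeletal muscle genes were read beside it. Of 8 cardiac markers, 3 passed the filter, and none was higher by 25%. The summed intensity of the 8 was 513 in the TG pool and 558 in the WT pool. The highest of those past the filter was Myl3 (0.04) and the lowest was Tnnt2, cardiac troponin T, at 130 in the TG pool and 174 in the WT pool (-0.42). Myh6, the cardiac myosin heavy chain, read 26.7 in the TG pool and 27.2 in the WT pool, below the filter in both. Of 12 skeletal muscle markers, 3 passed the filter and 0 reached that size in either direction. Their summed intensity was 700 in the TG pool and 661 in the WT pool. The highest was Myod1, at 0.320 just short of the step of 0.322, and the lowest Tnni2 (-0.02). Neither list holds Smpx, a striated muscle gene past 2-fold. It is given below with the myocardin and SRF partners, and there the filter fixed its direction. No deposited value is 0 and no detection calls came with the table, so none of these markers is called absent.

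Myosin and its activating kinase differed little, and not in one direction. Myh11, the heavy chain of smooth muscle myosin, read 2586 in the TG pool and 2627 in the WT pool (-0.02), and its second probe set lay at 0.15. Myl9, the regulatory light chain, read 4598 in the TG pool and 4122 in the WT pool (0.16). Mylk, the kinase that phosphorylates this light chain, had 2 bright probe sets below 0 and 1 dimmer one at 0.03. The brightest read 3960.0 in the TG pool and 4589 in the WT pool (-0.21), and the other bright one read 3329 in the TG pool and 4032 in the WT pool (-0.28). These values lie near the SD between probe sets over all genes (0.23) and past that over the smooth muscle genes (0.16).

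The brake on myosin, the phosphatase, is represented by a subunit and by an inhibitor. Ppp1r14a encodes CPI-17, which inhibits myosin phosphatase and so favours contraction. It read 387 in the TG pool and 279 in the WT pool, a difference of 0.47 or 1.39-fold, the second highest of the 34 genes and the 360th highest of all genes past the filter. It too has a single probe set. Ppp1r12b, a regulatory subunit of the phosphatase, read 322 in the TG pool and 349 in the WT pool (-0.12). Its other probe sets past the filter lay at -0.04 and 0.16. The probe set at 0.16 reached the filter only in the TG pool, so the filter fixed its side of 0. Ppp1r12a, the main targeting subunit and no member of the 34, differed by -0.25, though its probe sets past the filter ran from -0.25 to 0.23.

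The proteins that coat and regulate the thin filament stayed near 0. The 7 genes of this kind ran from -0.06 to 0.27 with a median of 0.04, and none was past 25% higher or 20% lower. Tagln (SM22), an actin-binding protein used as a smooth muscle marker, read 4123 in the TG pool and 3985 in the WT pool (0.05). Cald1, caldesmon, which restrains the actin-activated myosin ATPase, read 2044 in the TG pool and 2036 in the WT pool, and its 3 probe sets past the filter lay between 0.01 and 0.07. The tropomyosins Tpm1 and Tpm2, which lie along the actin filament, differed by 0.07 and -0.05, with the probe sets of Tpm1 running from -0.05 to 0.23. Smtn, smoothelin, differed by 0.04, and Lmod1, leiomodin, an actin nucleator, by -0.06. Cnn1, calponin, a marker of differentiated smooth muscle, was the highest of these, at 1558 in the TG pool and 1294 in the WT pool (0.27).

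Among the 10 genes that anchor filaments and pass force to the membrane, 7 lay above 0, 2 below and 1 at 0, with a median of 0.17. Only Des was higher by 25%. Of all genes past the filter, 51.4% lay above 0 and 7.97% were higher by 25%. With 10 genes, grouped with earlier results known, no result is drawn from these counts. Des, desmin, the intermediate filament protein of muscle, read 1693 in the TG pool and 1339.9 in the WT pool (0.34). Its second probe set was below the filter in both pools, at 67.5 in the TG pool and 66.5 in the WT pool. Csrp1, a LIM domain protein of the actin cytoskeleton, read 1946 in the TG pool and 1593 in the WT pool (0.29), and its second probe set lay at 0.33.

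The main probe sets of the further anchoring genes all lay within the SD between probe sets over all genes (0.23). Those of Synpo2, Flna, Synm and Actn1 (0.163) lay past the smaller SD over the smooth muscle genes (0.161). Synpo2, myopodin, differed by 0.19 (1193 in the TG pool, 1044 in the WT pool), with a dimmer probe set at 0.61 (130 in the TG pool, 84.7 in the WT pool). Flna, the actin crosslinker filamin A, differed by 0.19, Synm, the intermediate filament protein synemin, by 0.18, and Actn1, alpha-actinin, by 0.16. The other probe sets of Synm and Actn1 were also above 0, at 0.25 for Synm and at 0.23 for both of Actn1. Vcl, vinculin, which links actin to adhesion sites, read 1384 in the TG pool and 1280.0 in the WT pool (0.11), with a dimmer probe set at 0.46. Cav1, the coat protein of caveolae, differed by -0.07, and Pgm5, aciculin, read 210.2 in both pools. Dmd, dystrophin, read 162 in the TG pool and 178 in the WT pool on one probe set (-0.14), and 184 in the TG pool and 132 in the WT pool on another (0.48), so the 2 disagree.

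**Figure D3:**
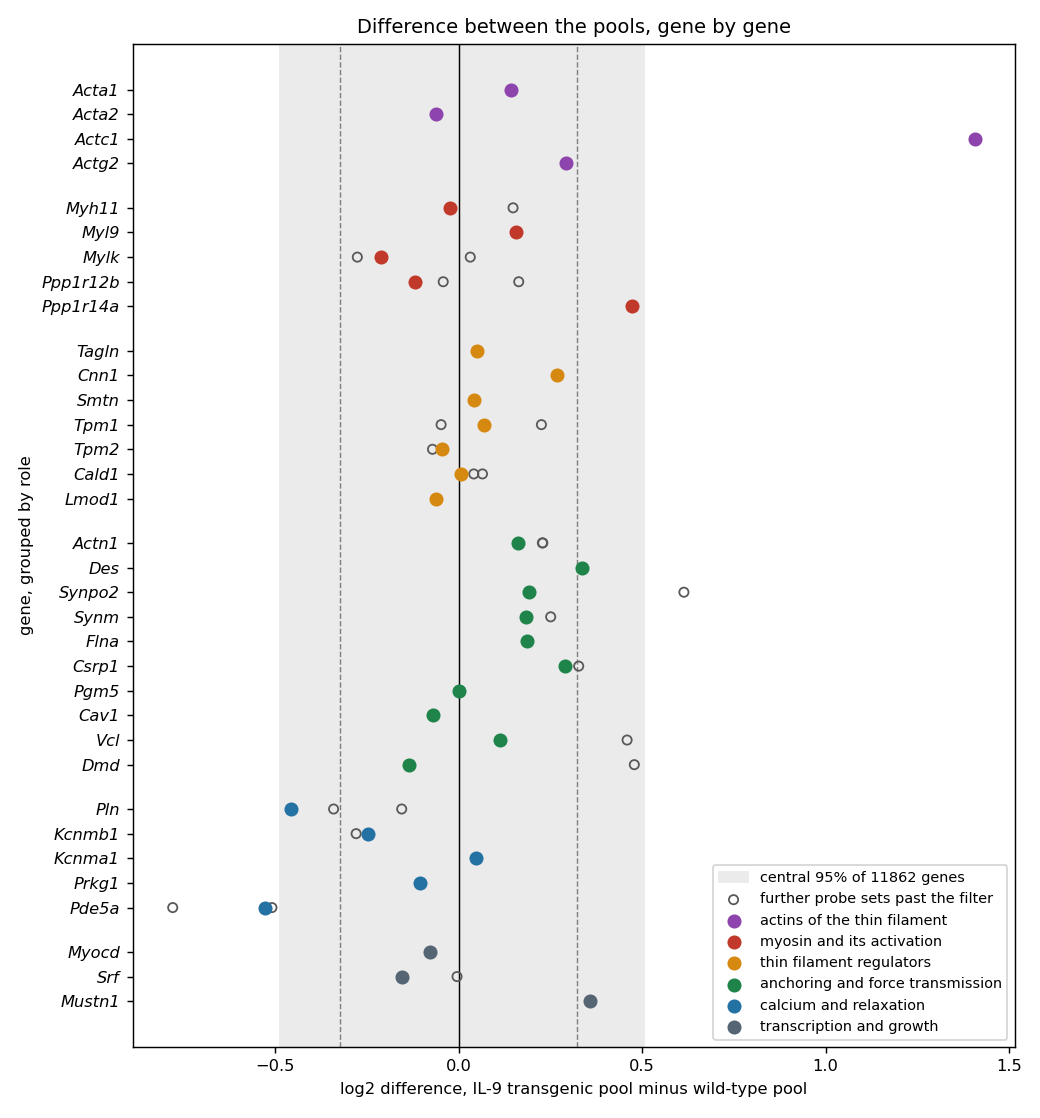
Log2 difference, TG pool minus WT pool, of the 34 genes by role (filled, 1 probe set each), with further probe sets past the filter (open), the central 95% of all genes (grey band, from -0.49 to 0.50) and the steps of 20% lower and 25% higher (dashed). Of the filled points, Actc1 at 1.41 and Pde5a at -0.53 lie outside the band; of the open ones, those of Pde5a and 1 of Synpo2 (0.61) do.

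Of the 5 genes of calcium handling and relaxation, Pde5a and Pln were lower by 20%, a size that 7.77% of all genes past the filter reached, and 0 were higher by 25%. Kcnmb1 and Prkg1 also lay below 0, Kcnma1 lay above 0, and the median was -0.25. The 5 were grouped with earlier results known, and only Pde5a stays with the filter at the 75th percentile. Pde5a, the phosphodiesterase that degrades cyclic GMP, was the lowest of the 34 genes and the 238th lowest of all genes past the filter. Its brightest probe set read 927 in the TG pool and 1337 in the WT pool, a difference of -0.53 or 1.44-fold lower. The other probe sets read 684 in the TG pool and 974 in the WT pool (-0.51), and 257 in the TG pool and 441 in the WT pool (-0.78). All 3 thus lay lower by more than 20%. Of the 16 genes with more than 1 probe set above the filter, only Pde5a had all of them past that size in one direction. Its probe sets share the same RNA and arrays. The identifier of the brightest marks it as able to match more than 1 transcript.

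Pln, phospholamban, which inhibits the calcium pump of the sarcoplasmic reticulum, read 135 in the TG pool and 186 in the WT pool (-0.46). Its other probe sets lay at -0.34 and -0.16, so all 3 were below 0. Kcnmb1, the beta subunit that makes the large-conductance potassium channel of smooth muscle sensitive to calcium, read 97.5 in the TG pool and 116 in the WT pool (-0.25). Its second probe set lay at -0.28, at 77.0 in the TG pool and 93.7 in the WT pool. That probe set reached the filter only in the WT pool, so its side of 0 was fixed by the filter. Pln and Kcnmb1 are both dim genes, not far above the filter at 78.5, as is Mustn1 (177 in the TG pool, 138 in the WT pool). How background signal affects the differences of such dim genes was not tested. Kcnma1, the pore subunit of the same channel, read 164 in the TG pool and 158 in the WT pool (0.05), its other 4 probe sets being below the filter. Prkg1, the kinase activated by cyclic GMP, read 212 in the TG pool and 228 in the WT pool (-0.11).

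The transcription factors that drive the contractile genes were nearly level. Myocd, myocardin, read 151 in the TG pool and 159.7 in the WT pool (-0.08). Srf read 249 in the TG pool and 277 in the WT pool (-0.15), and its second probe set lay at -0.0043. Mustn1, a small nuclear protein of the musculoskeletal system, read 177 in the TG pool and 138 in the WT pool (0.36), on its only probe set.

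Related genes of the smooth muscle cell, outside the 34, showed mostly small differences. The background for the counts below is 7.97% of all genes past the filter higher by 25% and 7.77% lower by 20%. In the list of calcium handling genes and ion channels, 14 of 19 on the array passed the filter, with a median of 0.01, 0 higher by 25% and 1 lower by 20%. The lowest was Itpr2, a calcium release channel (-0.43, its probe sets running up to 0.29), and the highest Cacnb2, a calcium channel subunit (0.23). In the list of receptors and signalling proteins that set tone, 15 of 20 on the array passed, with a median of -0.03, 1 higher and 0 lower by these sizes. That 1 gene was Tacr1, a receptor of substance P, at 118 in the TG pool and 93.2 in the WT pool (0.34), and the lowest was Ppp1r12a. The paralogs of the contractile proteins that serve other cells had a median of 0.03 over 17 of 18 genes on the array, none past these sizes, from -0.32 in Myh14 to 0.26 in Csrp2.

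Membrane linkage genes, those of the dystrophin complex, integrins and caveolae, were read next. Of 23 genes on the array 20 passed the filter and 14 of these lay above 0, as did 51.4% of all genes past the filter. Among the 20, 5 were higher by 25% and 1 lower by 20%, against 7.97% and 7.77% of all genes past the filter. The median was 0.13, or 0.08 without a filter. The highest was Itgb1, the integrin beta chain of matrix adhesion, at 1249 in the TG pool and 846 in the WT pool (0.56), with its 3 probe sets all at 0.33 or above. The lowest was Cavin2, a caveolar coat protein, at 338 in the TG pool and 449 in the WT pool (-0.41). Itgb1 is made by nearly every cell of the gut, so it does not stand for muscle alone.

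In the list of myocardin and SRF partners and muscle LIM proteins, 23 of 25 genes on the array passed, with a median of 0.09. Among the 23, 5 were higher by 25% and 2 lower by 20%, against 7.97% and 7.77% of all genes past the filter. Of the 5, Smpx and Barx1 reached the filter only in the TG pool, so the filter itself fixed their direction. Smpx, a small protein of striated muscle, was past 2-fold, at 87.4 in the TG pool and 42.6 in the WT pool (1.02). Fhl2, a LIM protein that binds SRF, read 1000.0 in the TG pool and 597 in the WT pool (0.74); it was singled out after its value was seen. The lowest was Tead1, a factor that binds the MCAT element, at 313 in the TG pool and 405 in the WT pool (-0.37). Smpx, Fhl2 and Tead1 were each read by 1 probe set past the filter.

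**Figure D4:**
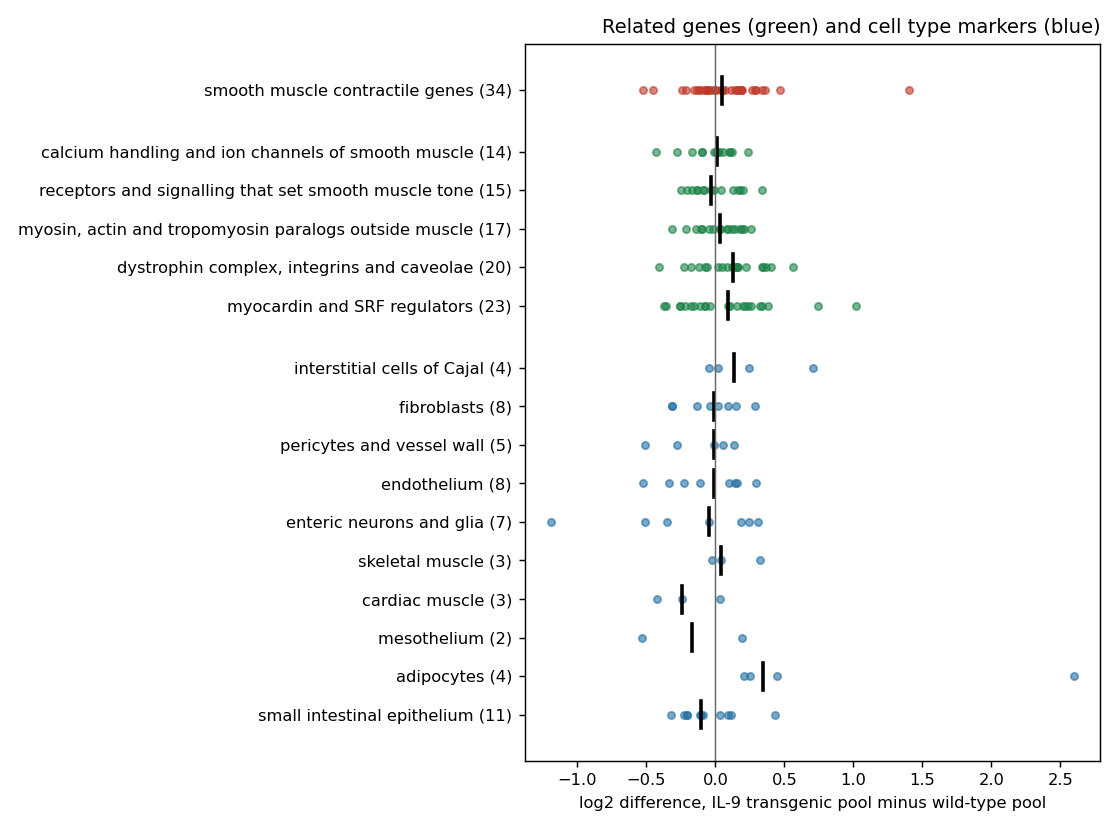
Log2 difference, TG pool minus WT pool, of the genes past the filter in the smooth muscle list (red), 5 related lists (green) and 10 cell type marker lists (blue), with the number of genes in parentheses and the median as a black bar. The medians lie between -0.24 and 0.35, and single genes far from 0 are Adipoq at 2.60, Actc1 at 1.41, Smpx at 1.02 and Vip at -1.19.

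Markers of the other cells of the gut wall were read beside these results, and their part in them was not tested. The labelled tissue showed its defining markers, as all 11 epithelial markers on the array passed the filter, with a summed intensity of 119097 in the TG pool and 125293 in the WT pool. Their median was -0.11, with Krt18 the highest (0.43) and Lct, lactase, the lowest (-0.32). The enteric neuron and glia list summed to 1601 in the TG pool and 2516 in the WT pool over 10 genes on the array, and Vip alone makes up nearly all of that gap. The list median was -0.04, or 0.0031 with the mean over probe sets. Of 7 past the filter, 3 were lower by 20% and 0 higher by 25%, against 7.77% and 7.97% of all genes past the filter. Vip, a neuropeptide that relaxes gut muscle, was 2.29-fold lower, at 693 in the TG pool and 1587 in the WT pool. The highest was Ret (0.31), which reached the filter only in the TG pool, so its side of 0 was fixed by the filter.

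The 5 adipocyte markers on the array summed to 1465 in the TG pool and 1118 in the WT pool. Of these, 4 passed the filter, from 0.21 in Cidec to 2.60 in Adipoq. Adipoq reached the filter only in the TG pool, so its side of 0 was fixed by the filter. The list median was 0.35, or 0.25 without a filter. For interstitial cells of Cajal, the pacemaker cells of gut muscle, the sums were 1793 in the TG pool and 1635 in the WT pool, with Kit the highest (0.71) and Prkcq the lowest (-0.05). Kit is also a mast cell gene. Fibroblast markers summed to 11290 in the TG pool and 10743 in the WT pool. Their median was -0.01, and they ran from -0.32 in Pi16 to 0.29 in Col3a1. Pi16 reached the filter only in the WT pool, so its side of 0 was fixed by the filter.

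The medians of the vessel lists depended on the setting. Markers of pericytes and the vessel wall summed to 5485 in the TG pool and 5335 in the WT pool, with a median of -0.01, or -0.28 with the filter at the 75th percentile. They ran from -0.51 in Pdgfrb, whose second probe set lay at 0.11, to 0.14 in Rgs5. Endothelial markers summed to 1287 in the TG pool and 1383 in the WT pool. Their median was -0.01, or -0.17 when probe sets marked as able to match more than 1 transcript were left out. These markers ran from -0.52 in Tek to 0.30 in Pecam1. For the mesothelium, which covers the outer muscle layer, 2 of 5 markers passed the filter, Upk3b at -0.53 and Krt19, which the epithelium also makes, at 0.20. As a sign of RNA integrity, the actin probe set at the 3′ end read 1.33 times the one at the 5′ end in the TG pool and 1.61 times in the WT pool. For Gapdh this ratio was 1.08 in the TG pool and 1.22 in the WT pool. The part of RNA integrity in the differences above was not tested.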

How the data were processed

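The deposited values are probe set intensities on a linear scale, from 5.60 to 24147 in the TG pool and from 5.75 to 25799 in the WT pool. They were made with RMA, per the submitters' processing notes, and its version, chip annotation and genome build were not given in the sources used here. RMA equalises the arrays, so a shift shared by most genes is hidden, and the number of arrays limits the precision.

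Probe sets were named from a platform annotation table (34958 of 45101 with 1 symbol, 932 with several, 9211 with none). Of 237 list entries, 7 symbols were updated through RefSeq synonyms and 19 were not analysed here. Differences are of log2(intensity + 1), so folds understate changes of dim genes. All 34 genes could be named, and from each list the genes past 2-fold or otherwise the highest and the lowest. Actb, Actg1, Myh6 and Fhl2 were named after their values were seen. Members, roles and lists were chosen with earlier results of these data known. Alternatives changed the pseudocount, filter, choice of probe sets and scaling. The computation was tested on simulated data. Python 3.11.15, numpy 2.4.6 and pandas 2.3.3 were used.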

Additional observations from a re-analysis of the deposited data

How the results depend on the processing

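Actc1 was past 2-fold under all 7 alternatives, as the only one of the 34 genes. It has a single probe set, so the filters and the choice of probe sets could not change its value. Only the pseudocount and the scaling could. Its difference was 1.36 with a pseudocount of 16, 1.40 after quantile normalization and 1.40 when centred on the median gene. The count of genes higher by 25% ran from 3 to 5: Des lay just short of it after quantile normalization (0.32), Mustn1 was too dim for the 75th percentile, and Synpo2 joined with the mean over probe sets (0.40). The median log2 difference of 0.04 was 0.0093 after quantile normalization and 0.091 when only values past the 75th percentile were kept, which left 24 genes. Over those brighter genes the count lower by 20% was 1 in place of 2, since Pln is dimmer than that filter. With the mean over probe sets it was also 1, since the mean of Pln was -0.32. That mean put Dmd at 0.17. When probe sets marked as able to match more than 1 transcript were left out, 26 genes had a value. Only Cald1 (0.04), Srf (-0.0043) and Pde5a (-0.51) were then read through another probe set. Each of them stayed within the SD over all genes of its value above. The rest of the 26 kept the same probe set, so their values could not change. None of the 6 genes past these sizes changed sign under any alternative. For Actc1, Ppp1r14a, Mustn1 and Des, with 1 probe set past the filter each, the choice of probe sets could not change it. With either other scaling only Cald1, at 0.0057 as deposited, changed sign, and with the mean over probe sets Myh11, Ppp1r12b and Dmd did. The medians of 14 related and marker lists were rerun under the same alternatives, a step added after the data were seen, and 7 of them changed sign under at least 1. Of these 7, the cardiac list lay farthest from 0 (-0.24 over 3 genes, and 0.05 without a filter). The myocardin and SRF list came next (0.09, and -0.04 when probe sets marked as able to match more than 1 transcript were left out). No direction is therefore given for those 7 lists. No paired analysis was possible because each group has 1 array.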
